A study of Mus musculus with 6 samples.

Results

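Ncor1, Pigl and Lrrc75a are 3 neighbouring protein-coding genes on mouse chromosome 11 that lie together inside chromatin loops classed as ZBTB21-responsive. The members were chosen as genes of these loops and not by their own values in the peak list, while the loops were put in this class by measured ZBTB21 and cohesin signals. They are 3 of 21774 protein-coding genes with an annotated transcription start site (TSS) in RefSeq. All 3 lie in each of 3 overlapping loops, among 500 responsive loops in all, and 0 less-responsive loops overlap them. The loops together span chr11:61950001-62725000 (mm10), or 775 kb, and this span is called the locus. It held 32 of the 41014 listed ATAC-seq peaks. The values come from untreated V6.5 cells, a mouse embryonic stem cell (mESC) line grown with irradiated mouse embryonic fibroblasts. Their labels give no treatment and no degron, although a protocol text that all samples share describes degron cells. There were 2 untreated replicates, and their peaks form 1 list, so no spread between replicates could be given, no test between samples was possible and the depth is unknown. The ZBTB21-degron mESCs, with 2 replicates each at 0 h and at 6 h of the auxin IAA, were not analysed here. The study asked which transcription factors, ZBTB21 among them, contribute to chromatin interactions.

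In ATAC-seq the Tn5 transposase inserts adapters into accessible DNA, so that a peak marks an open stretch such as an active promoter, an enhancer or a CTCF site. Cohesin extrudes chromatin into loops that often end where CTCF is bound, and such loops can bring distant regulatory DNA near a promoter. ZBTB21 is a zinc finger protein with a BTB domain. NCOR1 is the nuclear receptor corepressor, which binds unliganded nuclear receptors and carries the histone deacetylase HDAC3. PIGL removes the acetyl group from N-acetylglucosaminyl phosphatidylinositol in the endoplasmic reticulum, an early step in making the glycosylphosphatidylinositol (GPI) anchor that ties proteins to the cell surface. LRRC75A is a protein with leucine-rich repeats.

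The promoter windows of Ncor1, Pigl and Zswim7 are shown first, since no peak was listed at the start of a member and since the ZBTB21 peak of the locus lies at Zswim7. A window of Lrrc75a was not used here, and that of Ttc19 overlaps the Zswim7 window. Each window reaches from 250 bases before to 50 bases after a TSS (RefSeq, GRCm38, the assembly that mm10 names) and is written 5′ to 3′ on the gene's own strand. Capitals mark matches, on either strand, to the searched motifs, which are GGGCGG for the GC box, CGCATGCGC for NRF1, CCGGAAG for ETS factors, AAGATGGCG for YY1, ATGCNAAT for the octamer of POU factors, TCAAGGTCA for ESRRB, and the CTCF consensus. The windows of Ncor1 (chr11:62457283-62457582, minus strand) and Pigl (chr11:62458191-62458490, plus strand) face away from each other. The window of Zswim7 (chr11:62281346-62281645, minus strand) lies under the ZBTB21 peak of the locus.
Ncor1 promoter: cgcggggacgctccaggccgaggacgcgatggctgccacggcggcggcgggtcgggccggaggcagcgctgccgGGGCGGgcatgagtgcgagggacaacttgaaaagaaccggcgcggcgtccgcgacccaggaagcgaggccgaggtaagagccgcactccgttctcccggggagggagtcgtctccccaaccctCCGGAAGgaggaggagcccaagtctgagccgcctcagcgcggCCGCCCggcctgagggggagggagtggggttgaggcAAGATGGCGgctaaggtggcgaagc
Pigl promoter: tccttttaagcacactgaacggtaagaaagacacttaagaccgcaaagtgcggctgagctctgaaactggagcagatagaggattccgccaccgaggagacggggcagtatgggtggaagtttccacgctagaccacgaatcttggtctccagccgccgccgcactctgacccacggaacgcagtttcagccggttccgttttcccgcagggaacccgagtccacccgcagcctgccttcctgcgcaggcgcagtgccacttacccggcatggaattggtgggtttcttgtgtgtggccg
Zswim7 promoter: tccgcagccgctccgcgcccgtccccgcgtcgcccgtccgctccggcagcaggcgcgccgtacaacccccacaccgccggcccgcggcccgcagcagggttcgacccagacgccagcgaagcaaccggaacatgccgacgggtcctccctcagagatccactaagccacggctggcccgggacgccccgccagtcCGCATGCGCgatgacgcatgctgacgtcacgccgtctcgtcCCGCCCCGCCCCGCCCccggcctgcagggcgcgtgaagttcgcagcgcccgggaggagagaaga

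The Ncor1 window had a GC content of 72.3%, higher than that of 91.5% of promoter windows, and an observed to expected CpG ratio of 0.951. It held 2 matches to GGGCGG, 1 to CCGGAAG and 1 to AAGATGGCG, and these matches do not overlap. GGGCGG stands in 46.2% of the 21263 promoter windows of protein-coding genes, CCGGAAG in 11.6% and AAGATGGCG in 1.83%. The Pigl window had a GC content of 58.7%, a CpG ratio of 0.852 and no match to any of the motifs. An internal Ncor1 start site (TSS 62438515) had a window of another kind, with a GC content of 38.3% and a CpG ratio of 0.182. The median over all promoter windows was a GC content of 56.3% and a CpG ratio of 0.567.

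Ncor1 occupies chr11:62315663-62457414 on the minus strand and held 5 ATAC-seq peaks, more than the other members. It is also the longest member, at 141.8 kb, beside 57.6 kb for Pigl and 43.64 kb for Lrrc75a. Relative to gene length, Lrrc75a held the most peaks, and Ncor1 and Pigl were close to each other. In the order of transcription the 5 Ncor1 peaks had scores of 855, 767, 746, 703 and 594. The score is a whole number that the list gives for each peak, at least 540 and with a median of 696 over all peaks, and its scale is not given. Its lowest value is the one that the IDR software, which scores how well a peak repeats between replicates, writes at an IDR of 0.05, but whether the column holds such a score was not tested. The scores in Ncor1 thus lay lower with distance from the promoter, and the last was the only one of them under the median. The highest, at chr11:62430456-62431077, lies in intron 2 of the 45-exon transcript NM_001252313.1, with its centre 26.65 kb downstream of the first TSS. It scored above 95.4% of the list. A second peak of intron 2, chr11:62428957-62429333, stood next to it with a score of 767. Intron 4 held the peak of score 746, at chr11:62415130-62415592. Both remaining peaks touched exons. Exon 19 was overlapped by the peak at chr11:62372859-62373558 (score 703), and exon 32 by that at chr11:62338877-62339352 (score 594).

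Pigl occupies chr11:62458441-62516037 on the plus strand and held 2 peaks of very different score. In intron 1, chr11:62472441-62472756 had a score of 577, above only 10.6% of the list. In intron 2, chr11:62494578-62495426 had a score of 888, the highest within a member and above 97.9% of the list. Its centre lies 36.56 kb downstream of the TSS. It is wider, at 849 bp, than the median peak of the list (547 bp).

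Lrrc75a occupies chr11:62604884-62648523 on the minus strand and held 3 peaks. Its intron 1 held chr11:62621857-62622574 with a score of 692, next to the median. The peak at chr11:62613553-62614428 in intron 2 had a score of 882, above 97.6% of the list, with its centre 34.53 kb downstream of the first TSS. The third, chr11:62604941-62607047, overlapped exon 4, the last exon of the gene. It was both the widest peak of the locus (2107 bp) and the one with the lowest score (544). Its edge lies 411 bp from the start of Snord65, a small nucleolar RNA gene, so it counts as a promoter peak of Snord65 although it lies in Lrrc75a. Snord65 itself lies inside the lncRNA gene 2410006H16Rik, on the same strand. The TSS of that gene is 2.06 kb from the peak, so by the 1 kb rule it has no promoter peak.

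The highest-scored peak of each member (855, 888 and 882) thus lay in intron 2, counted in the curated transcript with the longest span. Ncor1 held another peak in that intron, of score 767. How often other genes show this was not computed. The central 300 bases of the highest-scored peak of each of the 3 genes are shown. They are read on the plus strand, and none of them holds a searched motif, so they have no capitals.
Ncor1 intron 2, chr11:62430617-62430916: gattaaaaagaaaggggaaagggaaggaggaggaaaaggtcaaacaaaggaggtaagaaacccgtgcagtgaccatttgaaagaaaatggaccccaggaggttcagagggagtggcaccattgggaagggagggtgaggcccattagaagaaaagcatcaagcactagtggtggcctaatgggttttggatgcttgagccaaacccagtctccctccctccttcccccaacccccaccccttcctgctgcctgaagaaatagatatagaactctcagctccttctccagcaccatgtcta
Pigl intron 2, chr11:62494852-62495151: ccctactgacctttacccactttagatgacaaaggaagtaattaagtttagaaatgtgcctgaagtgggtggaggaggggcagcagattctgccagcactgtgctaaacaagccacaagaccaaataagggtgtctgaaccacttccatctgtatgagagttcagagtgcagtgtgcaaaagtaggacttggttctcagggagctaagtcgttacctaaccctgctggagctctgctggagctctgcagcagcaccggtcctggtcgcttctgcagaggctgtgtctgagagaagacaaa
Lrrc75a intron 2, chr11:62613841-62614140: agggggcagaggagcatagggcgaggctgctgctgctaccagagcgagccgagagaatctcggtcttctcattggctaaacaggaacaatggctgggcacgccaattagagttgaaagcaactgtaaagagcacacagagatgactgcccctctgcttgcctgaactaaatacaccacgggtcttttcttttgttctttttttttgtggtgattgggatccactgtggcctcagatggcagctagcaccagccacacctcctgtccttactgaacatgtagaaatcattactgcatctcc

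The Ncor1 and Lrrc75a windows had GC contents of 50.7% and 50.3%, with that of Pigl just below them, close to the median of 50.2% over the 32 peaks of the locus and below that of 52.7% over all peaks. That no motif was found says only that these letters are not in the windows.

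Between Pigl and Lrrc75a, which lie 88.85 kb apart, 2 peaks were listed. The peak at chr11:62518918-62519469 (score 812) lies just past the end of Pigl. The peak at chr11:62565613-62566525 (score 794) lies between Ubb and Trpv2. They scored above 88.6% and 83.8% of the list. Neither overlaps a gene, and their nearest start sites are those of Cenpv at 19.3 kb and Trpv2 at 7.96 kb. Between Ncor1 and Pigl, whose first start sites are 1027 bp apart, no peak was listed.

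**Figure D1:**
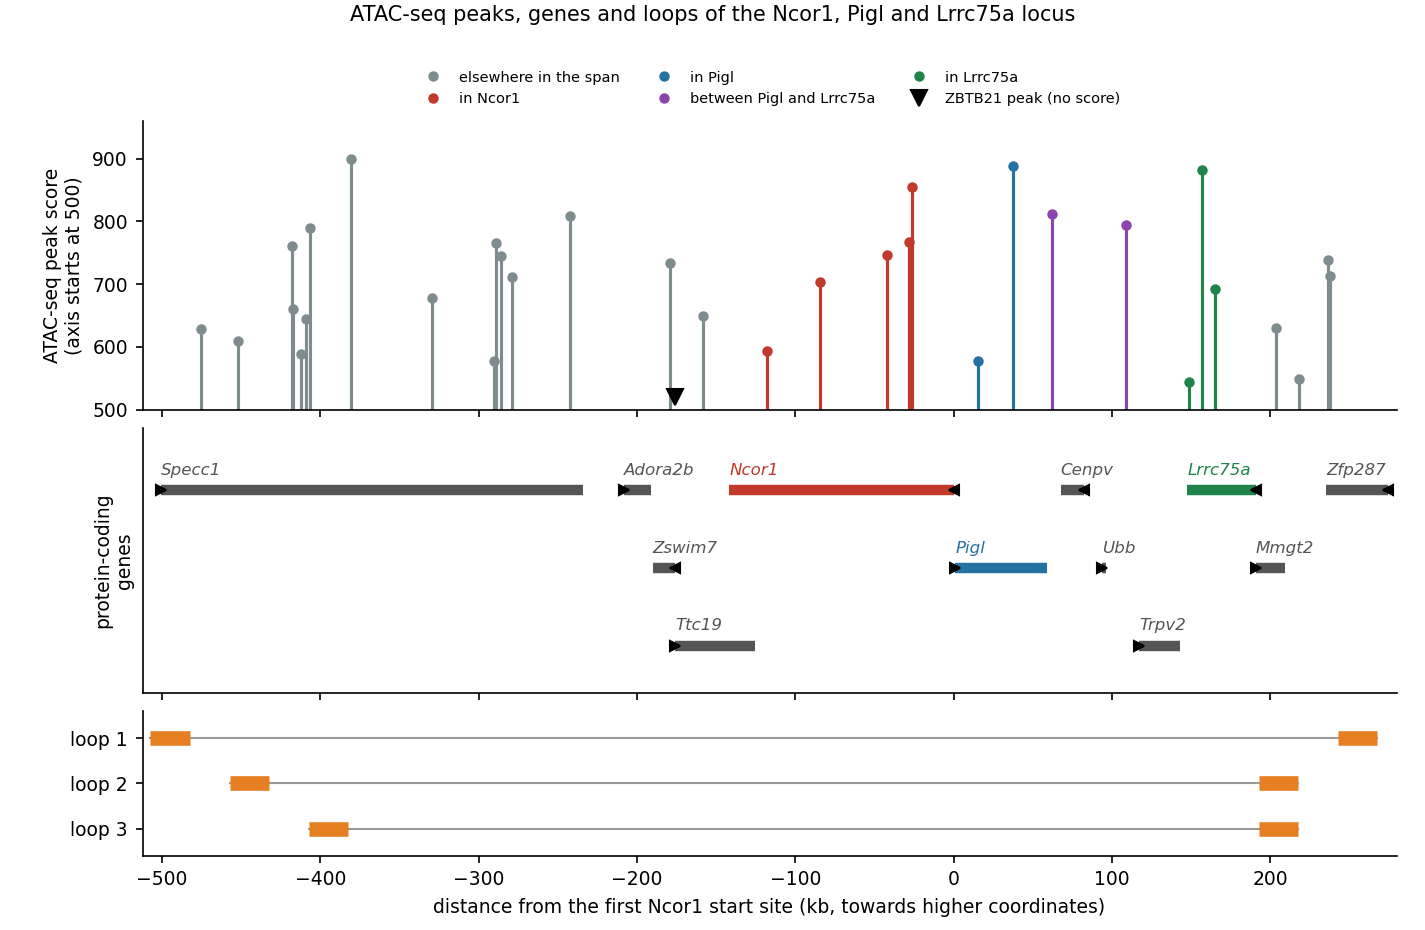
ATAC-seq peaks of the locus (top, score on an axis that starts at 500), protein-coding genes with an arrowhead at the first start site (middle) and the 3 loops with their 25-kb anchors in orange (bottom), against the distance in kb from the first Ncor1 start site. No peak stands between the highest-scored peak in Ncor1 (855) and the first in Pigl (577), on either side of 0 kb. The only ZBTB21 peak, the black triangle, stands at the Zswim7 and Ttc19 start sites.

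**Figure D2:**
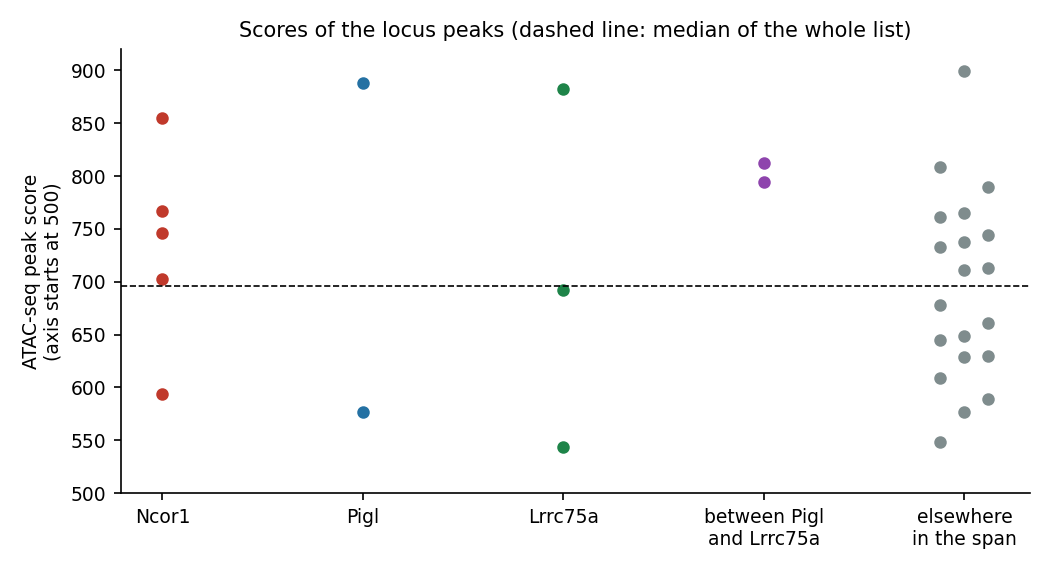
Scores of the 32 ATAC-seq peaks of the locus, 1 point a peak, by where the peak lies; the axis starts at 500 and the dashed line is the median of the whole list (696). Each member has 1 peak above 850 (855, 888 and 882), and both peaks between Pigl and Lrrc75a lie above the line.

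No peak was listed at the start of any member. A promoter peak, that is, one with its edge at most 1 kb from a TSS, was listed for 0 of 3 members, where 29.9% of the 21774 protein-coding genes had one. All 3 held peaks in the gene body, and of the 10792 genes with a peak in the body, 41.3% likewise had no promoter peak. Among the 1035 genes with at least the 5 body peaks of Ncor1, the share was 44.9%. The pattern of body peaks without a promoter peak was thus a common one in this list.

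From the internal Ncor1 TSS the nearest peak edge was 7.44 kb away, and from the other 2 Ncor1 start sites 15.1 and 15.0 kb. From the Pigl TSS it was 14.0 kb. For the Pigl TSS and these 2 Ncor1 start sites it was the same peak, the low-scored one in Pigl intron 1. From the Lrrc75a start sites (TSS 62648523 and TSS 62648049) the nearest peak was 12.4 and 12.9 kb away, upstream of the gene. The stretch without a listed peak around the Ncor1 and Pigl start sites was 41.36 kb long, from 62431077 to 62472441. The members' start sites were not close to a threshold: the count stayed at 0 with TSSs within 2.5 kb and with GENCODE vM21 start sites, the nearest of which, in Ncor1, lay 3558 bp from a peak.

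A missing peak in this list is no measurement of closed chromatin. Of the 21263 promoter windows, 26.2% had a peak within 1 kb of their TSS, and of the 8326 with a GC content of at least 60%, like that of Ncor1, 29.6% had one. Ubb, a polyubiquitin gene that cells generally express, lies in the locus and had its nearest peak 13.9 kb away. Markers of the labelled cell type were checked the same way. Of 8 stem cell markers, Pou5f1, Nanog and Zfp42 had a promoter peak (37.5%), while Sox2 had its nearest peak 10004 bp away. Of 8 fibroblast markers, a check for the feeder cells, Thy1 alone had one (12.5%). The share of all protein-coding genes was 29.9%. These differences were not tested, and with 8 genes in each list they do not settle the cell type. The remaining markers without a promoter peak were Esrrb, Tdgf1, Dppa4 and Lin28a of the stem cell list and Col1a1, Col1a2, Col3a1, Prrx1, Twist2, Postn and Dcn of the fibroblast list. Lin28a and Esrrb missed the 1 kb rule narrowly, with their nearest peaks at 1315 and 1569 bp, while those of Tdgf1 and Dppa4 lay at 13.9 and 19.3 kb. For these fibroblast markers the nearest peak lay between 6.07 kb (Col1a1) and 218 kb (Postn) away.

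The rest of the locus was read in the same way. Of the 9 protein-coding genes beside the members, 1 (11.1%) had one, where 29.9% of all protein-coding genes did. This was Specc1, a coiled-coil protein gene with several start sites. Specc1 held 14 peaks over 266.3 kb, the most of any gene of the locus. One of them, chr11:62076548-62077450, covers an internal start site and had the highest score of the locus (899), above 98.5% of the list. A second covers another start site at a score of 609. In the span of the lncRNA gene Gm39988, which lies inside Specc1, 5 of the 14 stood within 11.75 kb, with scores from 589 to 790.

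The other genes lay between 2.87 and 28.9 kb from a peak. Zswim7, whose product acts in homologous recombination, and Ttc19, a mitochondrial respiratory complex III factor, had the smallest distances after Specc1 (2.87 and 2.90 kb). Adora2b, an adenosine receptor gene, had the largest and no peak in its body. Cenpv, Ubb and Trpv2, the last a cation channel gene, also had none in their bodies. Mmgt2 starts next to Lrrc75a on the other strand, and its nearest peak was 12.3 kb away. Zfp287, a zinc finger gene at the edge of the locus, had its nearest peak 12.2 kb away.

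**Figure D3:**
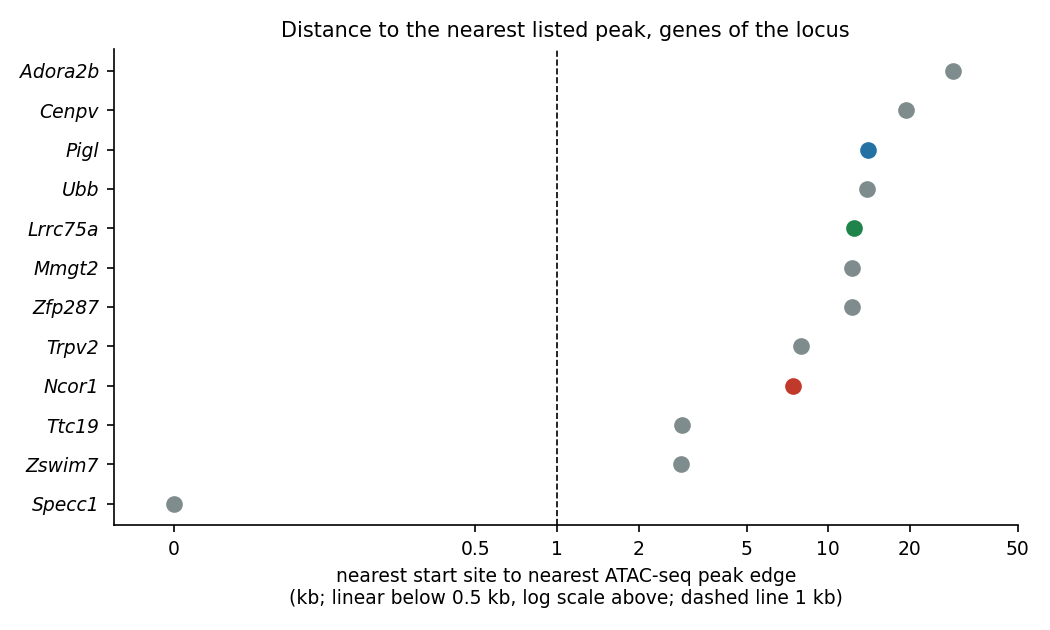
Distance in kb from the nearest start site to the edge of the nearest ATAC-seq peak for the 12 protein-coding genes of the locus (linear below 0.5 kb, log scale above; members in colour). Specc1 alone lies left of the dashed line at 1 kb, and Ncor1, Pigl and Lrrc75a lie at 7.44, 14.0 and 12.4 kb.

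The locus contained 1 of the 1827 ZBTB21 ChIP-seq peaks of mESCs. A responsive loop holds a ZBTB21 peak by definition, so its presence is no finding, and what follows is where it lies. It spans chr11:62280773-62282397 (1625 bp) and covers the divergent start sites of Zswim7 and Ttc19. None of the members had a ZBTB21 peak within 1 kb of a TSS. The share of all 21774 protein-coding genes with one was not computed. Only 1221 ZBTB21 peaks had a TSS within 1 kb, so their absence at 3 genes is no finding. The ZBTB21 peak was 156.1 kb from the nearest Ncor1 TSS, 176.0 kb from that of Pigl and 365.7 kb from that of Lrrc75a. For Lrrc75a a ZBTB21 peak to the right of the locus was nearer, 230.7 kb from its first TSS. No ATAC-seq peak overlapped the ZBTB21 peak of the locus, and the nearest, in Zswim7, ended 2.25 kb away with a score of 733. Of the 1221 ZBTB21 peaks with a TSS within 1 kb, 47.0% overlapped an ATAC-seq peak. The Zswim7 window under it had a GC content of 74.7% and a CpG ratio of 1.14, above those of the Ncor1 and Pigl windows, with 3 matches to GGGCGG, overlapping in part, and 1 to CGCATGCGC. The latter stands in 2.35% of promoter windows.

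The anchors of the loops, the 25-kb bins at their ends, held 3 ATAC-seq peaks. The longest loop, of 775 kb, had none in its anchors, as did 23.4% of the responsive loops. In the loop of 675 kb, the left anchor held the peak at chr11:62005118-62005812 (score 609) at a Specc1 start site. In the loop of 625 kb, the left anchor held the peak at chr11:62050236-62051189 (score 790) at the start of Gm39988. These 2 loops share their right anchor, which held the peak at chr11:62660951-62661193 in Mmgt2, with a score of 630 and a width of 243 bp, the narrowest of the locus. It is also the peak nearest to the Lrrc75a start. Of the 32 peaks, 23 lay in all 3 loops, all peaks of the members among them, 5 in 2 loops and 4 in the longest loop only.

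The CTCF consensus was found in the central 300 bases of 2 of the 32 peaks (6.25%), against 4.78% of all peaks. Both windows are shown because CTCF is the factor most often bound at loop ends, with the match in capitals, on the plus strand in each.
Peak 1.76 kb left of an anchor, chr11:62047841-62048140: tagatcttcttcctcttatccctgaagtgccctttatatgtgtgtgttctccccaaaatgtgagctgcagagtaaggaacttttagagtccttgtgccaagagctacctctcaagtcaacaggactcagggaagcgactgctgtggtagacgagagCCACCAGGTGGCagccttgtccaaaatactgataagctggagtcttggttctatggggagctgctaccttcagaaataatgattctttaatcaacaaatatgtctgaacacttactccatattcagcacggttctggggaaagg
Peak 52.8 kb right of an anchor, chr11:62127825-62128124: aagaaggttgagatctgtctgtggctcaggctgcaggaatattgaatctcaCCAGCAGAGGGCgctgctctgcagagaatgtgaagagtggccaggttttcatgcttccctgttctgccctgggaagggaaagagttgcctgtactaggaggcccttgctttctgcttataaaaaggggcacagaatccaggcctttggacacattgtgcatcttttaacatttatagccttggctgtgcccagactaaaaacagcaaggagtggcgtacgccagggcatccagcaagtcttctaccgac

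Both peaks lie in introns of Specc1, left of the members, and had scores of 645 and 678, under the median of the list. The first stands just outside the left anchor of the shortest loop. A match is a description and not a site of binding. Of the other motifs, GGGCGG was found in 3 of the 32 windows (9.38%; 22.3% of all), CCGGAAG in 1 (3.12%; 5.08% of all) and ATGCNAAT in 1 (3.12%; 5.26% of all). CGCATGCGC, AAGATGGCG and TCAAGGTCA were found in 0 of the 32 and in 0.512%, 0.776% and 1.27% of all.

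The loops of the locus had 41.29, 41.48 and 36.8 ATAC-seq peaks per Mb. Their ranks among the 500 responsive loops were 104, 98 and 149, and the median responsive loop had 30.44 per Mb (25th percentile 20.68, 75th percentile 38.81). These loops overlap and share 23 peaks, so they are not independent of each other. Loops were ranked for this class through signals at ATAC-seq peaks, so the density is also not independent of the class. The median score in the locus was 712, beside 696 over the list, and 18 of the 32 peaks lay above the latter. At promoters lay 4 of them (12.5%), beside 8193 of 41000 peaks on chromosomes 1 to 19, X and Y. Introns held 22, exons 3 and intergenic sequence 3.

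The locus of Sall1, a zinc finger repressor gene, and Chd9, a chromatin remodeller gene, served as a comparison. Its 2 responsive loops span 2050 kb of chromosome 8 with 3 protein-coding genes and 28 peaks, or 13.66 per Mb, against 41.29 per Mb over the whole Ncor1 locus. The loops ranked 452 and 446 by density. Of the 1221 ZBTB21 peaks with a TSS within 1 kb, 47.0% overlapped an ATAC-seq peak. Both loci held 1 ZBTB21 peak without an overlapping ATAC-seq peak, each at a promoter. In the Sall1 and Chd9 locus this was the promoter of a gene the loops were named for, Chd9, which also had a promoter peak, at another of its start sites, and 8 peaks in its body. Sall1 had none in its body and its nearest peak at 8.60 kb. No test of these differences was possible with 1 pooled list.

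**Figure D4:**
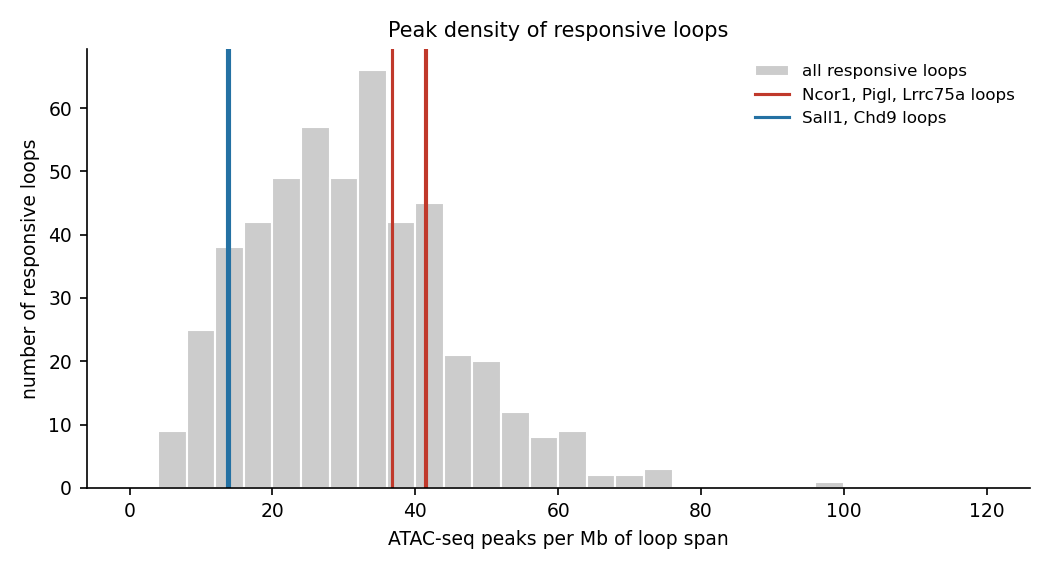
Number of responsive loops (vertical axis) by ATAC-seq peaks per Mb of loop span. The 3 loops around Ncor1, Pigl and Lrrc75a (red lines, 36.8 to 41.48 per Mb) lie right of the median of 30.44, and the 2 loops around Sall1 and Chd9 (blue lines, 13.68 and 13.88) left of it.

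Gene lists place Ncor1 and Pigl among their partners. In the list of NCoR corepressor complex genes, 3 had a promoter peak, where 29.9% of all protein-coding genes had one. A gene of this list is not reported here, so no share of the list is given. The 3 were Tbl1xr1 (score 770), Tbl1x (614) and Hdac3. Tbl1xr1 and Tbl1x encode WD-repeat subunits of the complex, and the nearest peak of Hdac3 (694) lay 926 bp from a TSS. Ncor1 and Gps2 had none, with their nearest peaks at 7.44 and 1.69 kb, and both held peaks in their bodies. Gps2 was the one gene of the list with a ZBTB21 peak within 1 kb of a TSS.

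Of 25 genes of GPI anchor synthesis, 10 had a promoter peak and 15 had none. Pigl was among 6 genes without a promoter peak that held a peak in the body, and 9 of the 25 held none in the body. Of all 10792 protein-coding genes with a peak in the body, 41.3% had no promoter peak. The step before that of PIGL is made by the enzyme complex of PIGA, and Pigc (score 670) and Dpm2 (774) were among its genes with a promoter peak. Piga, Pigh, Pigp and Pigq had none, with their nearest peaks at 37.4, 2.80, 38.0 and 18.7 kb. Of the mannosyltransferase genes of later steps, Pigm (849) and Pigz (752) had one, while Pigb and Pigv had none, with their nearest peaks at 4202 and 1505 bp. Of the ethanolamine phosphate transferase genes, Pign (908) and the partner gene Pigf (878) had one, while Pigo and Pigg had none. Of the transamidase genes that attach the finished anchor to proteins, Pigs (742) and Gpaa1 (794) had one, while Pigk, Pigt and Pigu had none. A ZBTB21 peak stood within 1 kb of a TSS of Piga, Pigg and Dpm1, and not of Pigl. Pigyl (784) and Dpm3 (777) also had a promoter peak, while Pigw and Pigx had none. These genes were not assigned to a step or complex here. Both lists are descriptions of 1 list of peaks, and neither count was tested against the 29.9% of all genes. For ZBTB21 peaks at the start sites of these genes, the share over all protein-coding genes was not computed.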

How the data were processed

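ATAC-seq was performed in untreated V6.5 mESCs (2 replicates). The authors deposited 1 list that pools both, with mm10 coordinates and a score per peak; per the labels, the tools were cutadapt 2.6, Bowtie2 2.3.5.1 and MACS2 2.1.1, with no role given. The peak calling steps for ATAC-seq, and whether cut sites were shifted for Tn5, are not given in the sources used here. A shift moves edges by a few bases, and a stricter threshold removes weak peaks.

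Responsive loops and ZBTB21 mESC peaks were taken from the supplementary lists of the study (coordinates only). A peak was counted in a region when it overlapped by at least 1 bp. Promoters were regions within 1 kb of a RefSeq TSS (GRCm38.p6, 78726 TSSs, curated and model). No listed peak ended beyond its chromosome (0). Sequences came from RefSeq, where Ncor1, Pigl and Zswim7 matched. Counting was tested on simulated data. Named genes were the members, the protein-coding genes of the locus, the complex and pathway lists, Sall1 and Chd9, and named peaks were those in members, between them, in anchors, at ZBTB21 peaks, and with the highest and lowest score; peaks with a CTCF match were added after their values were seen. Members and lists were chosen with earlier results of these data known. A gene of the NCoR complex list is not reported here. With 1 pooled list no test was made, and the alternatives (overlap rule, span, score, TSS distance and set) are given in the closing section. Python 3.11.15, numpy 2.4.6 and pysam 0.24.0 were used.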

Additional observations from a re-analysis of the deposited data

How the results depend on the processing

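Over 13 results, 41 values were computed under alternatives, and 35 of them stayed within 1.5 times the value given. When peaks at or under the median score were left out, which by construction removes about as many as it keeps, the locus held 18 peaks in place of 32, the member genes 6 in place of 10, the anchors 1 in place of 3 and the Sall1 and Chd9 locus 17 in place of 28, and 1 gene of the NCoR complex in place of 3 had a promoter peak. By the number of peaks per loop in place of the density, the median rank of the 3 loops was 163 in place of 104, a number that is not divided by the loop's length. The count of members with a promoter peak was 0 under each alternative tried, and that of genes of the locus was 1. For the members most of these alternatives could not have given another count. Requiring the TSS inside the peak, a score above the median or curated TSSs can only remove peaks or start sites. The wider TSS distance was still short of the 7438 bp from the nearest member RefSeq TSS to a peak. Only the GENCODE start sites could have raised the count, and the fixed values are among the 35. The GENCODE start sites were chosen after seeing the data. No paired analysis was possible because the list pools both replicates, and for the same reason no replicate could be left out. The depth and the spread between replicates are unknown.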

Other observations

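Lrrc75b, the paralogue of Lrrc75a on chromosome 10, also had no promoter peak, with its nearest peak at 7.60 kb, and unlike Lrrc75a it held 0 peaks in its body. On chromosome 11, the ZBTB21 peaks next to the locus lie 850.5 kb to its left and 154.2 kb to its right, and 0 ATAC-seq peaks overlapped either of them. Of the 1221 ZBTB21 peaks with a TSS within 1 kb, 47.0% overlapped an ATAC-seq peak, so the lack of overlap is common. The share over all 1827 ZBTB21 peaks was not computed. The longest stretch of the locus without a listed peak, 62.3 kb, lies between the last peak in Specc1 and the peak in Zswim7 and holds Adora2b.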
